A study of Rattus norvegicus with 55 samples.

Results

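Kidney expression was compared between 11 arrays labelled mature and 10 labelled immature, chosen from 55 rat kidney arrays because their probe set for RT1-Bb (X56596_at) read below an intensity of 600. RT1-Bb encodes a class II histocompatibility beta chain, which presents peptides to T cells. Its intensity was 116.2 at the lowest, 143.1 at the median and 258.1 at the highest on the 11 mature arrays, against 88.8, 119.2 and 196 on the 10 immature arrays. Over all 55 arrays the highest value inside the limit was 263 and the lowest outside it 1411.5, so no array lay near 600. These values chose the arrays and are given as a description only. The 6 other mature and immature arrays, 3 of each stage, read 1411.5 to 2007.8 and form the RT1-Bb-high class. Another probe set annotated to RT1-Bb, U65217_i_at, ran the other way: it read 369.9 to 836.9 on the mature and 192.8 to 877 on the immature low arrays, against 0.9 to 7.4 on the 6 high arrays. M36151cds_i_at, also annotated to RT1-Bb, read 7.1 to 1103.4 and 218.5 to 1166.6, against 3.1 to 5.8. M36151cds_s_at overlapped between the classes (275.3 to 1526.3 on the low and 469.7 to 1192.6 on the high arrays), and M15358cds_at was dim in both. The class names therefore refer to X56596_at alone, not to RT1-Bb expression as a whole.

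Every array carried total RNA from kidney of animals whose title names SHR, the spontaneously hypertensive rat, and whose description calls them Wistar-derived. Mature and immature are the stage words of those descriptions. The labels used here give no age, sex, diet or treatment for either group. Nor do they state that replicate arrays stand for different animals, so p-values below cover only the variation among these arrays, part of which may be technical. Kidney transcripts were high on these arrays in both stages: Slc34a1, the phosphate transporter of the proximal tubule, had a median of 21328 in mature and 15224 in immature kidney, and Umod, the uromodulin gene of the thick ascending limb, 15915 and 9474.

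The rat kidney goes on forming and lengthening nephrons after birth. As it matures, cell division slows, the loose collagen-rich tissue between the growing tubules thins out, and tubule cells take on more of the transporters, brush border enzymes and drug-metabolising enzymes of the adult organ. Some of these genes depend on the growth hormone and sex hormone patterns set at puberty, Cyp2c11 being the classic male-specific cytochrome P450 of rat liver.

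Stage and technical batch nearly coincided on the 21 arrays. Batches here are 3 clusters of arrays drawn from 42 control probe sets, since the labels name none. Of the mature arrays 10 lay in batch 3 and 1 in batch 1 (mature replicate 5). Of the immature arrays 7 lay in batch 2 and 3 in batch 1 (immature replicates 4, 5 and 6). A probe set covering 18S ribosomal RNA among others, which is not among those controls, gave 25.3 to 280.9 for mature kidney. It gave 27.9 to 63.5 for the 3 immature samples of batch 1 and 13775 to 20470 for the 7 of batch 2. The GAPDH 3'/5' ratio, which goes up when RNA is degraded, stood at 7.18 for mature replicate 1, at 3.47 for mature replicate 9 and between 0.827 and 1.45 for the remaining 19 arrays. The scaling left the arrays alike, with a 2% trimmed mean of 500.4 to 500.7 on each of the 21. The differences are therefore given beside 4 further estimates: leaving out the 2 mature arrays whose GAPDH ratio was high, with batch as a block in a fit of all 55 arrays, inside batch 1 (mature replicate 5 against the 3 immature arrays) and on the 6 RT1-Bb-high arrays, which all lie in batch 1 and share no array with the 21.

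**Figure D1:**
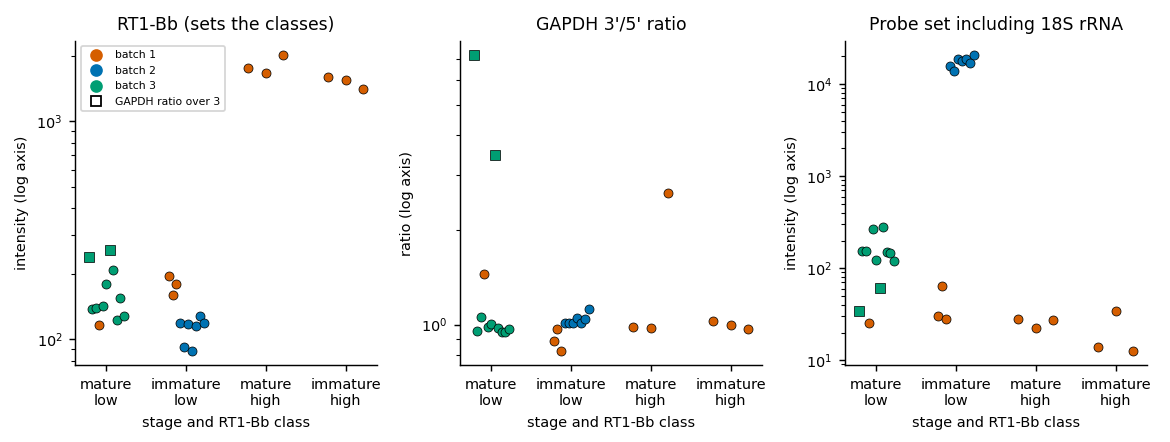
Each point is 1 array of the mature and immature groups, in columns by stage and RT1-Bb class, coloured by batch, with squares for a GAPDH ratio over 3 and log axes throughout. RT1-Bb leaves a wide gap between the low arrays (88.8 to 258.1) and the high arrays (1411.5 to 2007.8), the 2 mature squares stand at GAPDH ratios of 3.47 and 7.18, and the 7 immature arrays of batch 2 stand alone at 13775 to 20470 on the 18S probe set.

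Of 3835 genes tested, 829 differed between the stages (21.6%): 354 were higher in mature kidney (9.23%) and 475 were lower (12.4%) at an adjusted p under 0.05 (limma on log2(intensity + 15.82), 1 probe set per gene). All changes below are differences, mature minus immature, on that log2 scale, where the added offset makes the changes of dim genes look smaller. Over probe sets, 1397 of 6555 were called (21.3%), 603 higher (9.2%) and 794 lower (12.1%). The median log2 change over all genes tested was 0.04. Changes above 1 on the log2 scale were fewer among the rises, 29 genes, than among the falls, 110 genes. The 11 mature and 10 immature arrays did not overlap for 13 genes higher in mature kidney (0.339% of genes tested) and 26 genes lower (0.678%). With the 2 mature arrays of high GAPDH ratio left out, 27.2% of genes were called, 410 of them higher (10.7%) and 633 lower (16.5%), and 288 of the 354 and 444 of the 475 were among them.

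Fewer genes passed once batch was a term. In the 55-array fit with batch as a block 7.2% of genes were called, 101 higher (2.63%) and 175 lower (4.56%), of which 65 and 132 were among the 354 and the 475. The direction was the same in that fit for 88.1% of the rises and 95.8% of the falls. For all genes tested with a positive and a negative change it was 65.2% and 77.1%, and for genes not called 60.5% and 70.3%. That fit includes the 21 arrays, so its directions are not independent of the calls. It links batches 2 and 3 partly through arrays labelled young or without a stage word. It takes a batch shift to be the same in every group. Inside batch 1, with 1 mature array, 55.1% of the rises and 55.6% of the falls kept their direction, against 42.1% and 54.1% of all genes tested. On the RT1-Bb-high arrays 61.9% of the rises and 75.2% of the falls did, against 53.6% and 56.5%. Some genes passed the block and had the same direction both inside batch 1 and on the RT1-Bb-high arrays. They were 43 of the 354 rises and 92 of the 475 falls. Over all genes tested they were 67 of 2069 with a positive and 115 of 1766 with a negative change. Among genes not called they were 24 of 1715 and 23 of 1291. All 3 immature arrays of batch 1 lay inside the range of the mature arrays for 47.7% of the called rises and 41.1% of the called falls. Among the called genes named below, these were Cyb5a, Neurod1, Amigo1, Slc15a1, Klk1, Nos2, Bdkrb1, Cyp24a1, Igfals, Cox6a2, Pdgfrb, RT1-Ba, Lep, Pnmt and Adprs among the rises, and Rpa3, Rev1, Srsf5, Mmp9, H2az1, Rpa2, Ptn, Grb10, Slc9a3, Folh1, Slc12a1, Per2, Nr1d2, Cald1, Tfrc, Car2 and Aif1l among the falls. The mature range takes in replicates 1, 5 and 9, whose actin 3'/5' ratios of 2.75 to 5.55 were the highest of the 21. For H2az1 only mature replicate 5 (1208.8) stood above the immature arrays of batch 1 (802, 903 and 1093). For Mmp9 only mature replicate 1 (209.8) stood above immature replicate 5 (147.3). How far the shares of 47.7% and 41.1% depend on those mature arrays was not tested. These shares were not counted over all genes tested, so whether they are high or low cannot be told. Replicate 5 is also the only mature array behind every estimate inside batch 1. Its actin 3'/5' ratio was 2.75, against 0.869 to 1.26 on the 3 immature arrays of that batch. How far the size and direction of changes inside batch 1 depend on this array was not tested. In bulk kidney, fewer cells of a type and less RNA per cell cannot be told apart.

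The largest change was in Cyp2c11 (J02657_s_at). Its intensity was 835, 1899 and 3569 (lowest, median, highest) on the mature arrays, against 20.7, 50.95 and 214.4 on the immature arrays. No mature array came near an immature one, and the 2 lowest mature values, 835 and 1041, were on the arrays of high GAPDH ratio. The log2 change was 4.65 ± 0.33 (SE; 25.2-fold, adjusted p = 2.4e-09), 4.87 without those 2 arrays, 4.89 with batch as a block, 3.74 inside batch 1 and 5.44 on the RT1-Bb-high arrays (adjusted p = 0.015 there).

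Rises were also large for 3 genes whose proteins circulate in plasma. Mbl1 (AF080507_at), a mannose-binding lectin of innate immunity, read 301, 402 and 1488 on mature arrays, against 64.0, 95.7 and 176.7 on immature arrays. The groups did not overlap, and the change of 2.08 ± 0.24 (adjusted p = 2.5e-06) was 1.79 without the arrays of high GAPDH ratio, which held the 2 highest values, 997 and 1488. Gc (M12450_at), the vitamin D-binding protein, read 426, 880 and 961 on mature arrays, against 158, 254 and 537 on immature arrays. The lowest mature values were on the 2 arrays of high GAPDH ratio (426 and 546), and only the first lay inside the immature range. The change was 1.44 ± 0.19 (adjusted p = 2.5e-05), 1.58 without them. Agt (rc_AA943892_at), angiotensinogen, the precursor of the angiotensins, read 363, 477 and 1980 on mature arrays, against 133, 234 and 527 on immature arrays. Here the 3 immature arrays of batch 1 (296, 443 and 527) stood above all 7 of batch 2, and 2 of them lay inside the mature range. The change of 1.34 ± 0.30 (adjusted p = 0.0029) was 1.01 without the arrays of high GAPDH ratio and 1.07 inside batch 1. All 4 of these genes passed with batch as a block (4.89, 2.20, 1.45 and 1.71), and their changes on the RT1-Bb-high arrays were 5.44, 2.07, 1.48 and 2.03.

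**Figure D2:**
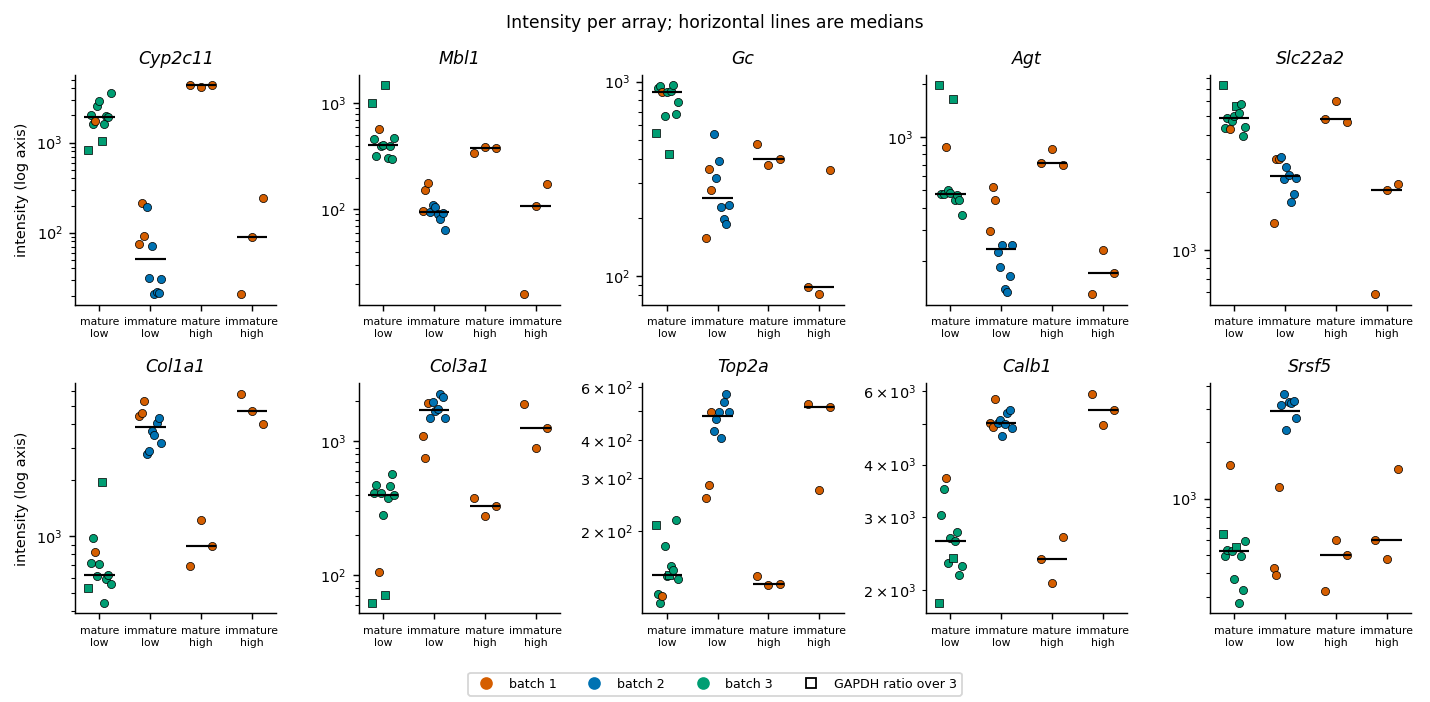
Each panel gives the intensity of 1 gene on a log axis, with 1 point per array in columns by stage and RT1-Bb class, coloured by batch, squares for a GAPDH ratio over 3, and a line at the median. Cyp2c11, Mbl1, Slc22a2, Col1a1, Col3a1, Top2a and Calb1 separate mature from immature on the RT1-Bb-low arrays, while Srsf5 is high on the 7 immature arrays of batch 2 (2324 to 3632) and spread from 389 to 1162 on the other 3.

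Of the other 11 among the 15 largest rises, 5 passed with batch as a block. Nefm (Z12152_at), a neurofilament subunit best known from axons, read 98.6, 148 and 471 on mature arrays, against 7.4, 18.15 and 70.3 on immature arrays (2.36 ± 0.25, adjusted p = 8.6e-07), with no overlap. Ldhd (rc_AI639504_at), the mitochondrial D-lactate dehydrogenase, read 1227, 1468 and 1681 on mature arrays, against 369, 558 and 741 on immature arrays. Its mature values were close together and did not overlap the immature ones, and its change was 1.34 ± 0.12 (adjusted p = 8.4e-08), 1.49 inside batch 1 and 1.35 with the block. Cxcl13 (rc_AA892854_at), a B-cell chemokine, read 129, 170 and 324 on mature arrays, against 36.7, 53.9 and 74.2 on immature arrays (1.59 ± 0.16, adjusted p = 6.2e-07), also without overlap. Amigo1, an adhesion protein, rose by 1.38 ± 0.33 (adjusted p = 0.0051), and the 3 immature arrays of batch 1 (79.9, 98.8 and 143.7) lay inside the mature range of 48.3 to 265.7. It was at 1.74 with the block, 0.66 inside batch 1, -0.50 on the RT1-Bb-high arrays and 0.11 without the immature arrays of batch 2. Pakap, an anchoring protein for protein kinase A, rose by 1.34 ± 0.19 (adjusted p = 5.8e-05) and was at 0.83 with the block, 0.27 inside batch 1 and 0.23 on the RT1-Bb-high arrays, and the stages overlapped.

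The other 6 rises did not pass with the block. Mgll, monoacylglycerol lipase, rose by 1.38 ± 0.26 (adjusted p = 0.00069), with 1.46 inside batch 1 and 0.56 with the block. Nr3c1, the glucocorticoid receptor, did not overlap between the stages (421, 532 and 654 on mature arrays, against 118, 176 and 407 on immature arrays). Yet its change of 1.35 ± 0.17 (adjusted p = 1.6e-05) stood at -0.36 with the block, and its other probe set was called in the opposite direction. Rpl19l4 (X07686cds_s_at), annotated as a ribosomal protein L19-like gene, rose by 1.75 and was at -0.57 with the block. Neurod1, a neuronal transcription factor, rose by 1.62, with -0.18 in the block and -1.04 inside batch 1. Cyb5a, cytochrome b5, rose by 1.80 ± 0.55 (adjusted p = 0.024), and its call was lost without immature replicate 12 (adjusted p = 0.053). Immature replicates 7, 8 and 12, of batch 2, read 178.1, 101.9 and 292.4. The other immature arrays read 1968.8 to 4456.4 and the mature arrays 3042.1 to 7728.5. Inside batch 1 Cyb5a was at -0.26, and neither of its 2 other probe sets went the same way. COX2, the mitochondrially encoded cytochrome oxidase subunit, rose by 1.26 and was at -0.02 inside batch 1. For COX2 immature replicates 7 and 8 read 2704.3 and 2008.4. The other immature arrays read 6286.6 to 11996.7 and the mature arrays 9319 to 24956.3.

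The 15 largest falls held 4 collagen chains. Col1a1 (M27207mRNA_s_at), the main chain of type I collagen, read 439, 621 and 1960 on mature arrays, against 2773, 3860 and 5302 on immature arrays. The stages did not overlap, and the highest mature value was on mature replicate 9, with the next at 987. The change was -2.38 ± 0.20 (5.22-fold lower in mature kidney, adjusted p = 3.9e-08), -2.24 with the block, -2.50 inside batch 1 and -2.37 on the RT1-Bb-high arrays, where it also passed (adjusted p = 0.017). Col3a1 (X70369_s_at), the chain of type III collagen, read 62.0, 397 and 573 on mature arrays, against 752, 1713 and 2272 on immature arrays. Its 3 lowest mature values were on replicates 1, 5 and 9, whose actin 3'/5' ratios of 2.75 to 5.55 were the highest of the 21. The change was -2.49 ± 0.34 (adjusted p = 3.3e-05), -2.09 without replicates 1 and 9, and -1.95 on the RT1-Bb-high arrays (adjusted p = 0.035). Col5a2, a regulatory fibril chain, fell by 1.95 ± 0.22 and Col4a5, a chain of the glomerular basement membrane, by 1.99 ± 0.31. Neither overlapped between the stages, and both passed with the block at -1.95 and -1.45.

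Myl9, a myosin light chain of smooth muscle, read 69.3, 266 and 694 on mature arrays, against 603, 1222 and 1852 on immature arrays. Only immature replicate 4, at 603, lay inside the mature range, and the change of -2.18 ± 0.32 (adjusted p = 7e-05) was -2.03 with the block. On the RT1-Bb-high arrays Myl9 was at 0.16. Of the 12 smooth muscle and mesangial genes tested, Myl9 included, 2 rose and 2 fell (16.7% each, against 9.23% and 12.4% of all genes tested). Their summed intensity was 8218 to 20087 on mature arrays, against 8278 to 11497 on immature arrays.

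The other 10 large falls were in genes of other kinds. They were the splicing factor Srsf5, the nuclear speckle protein Pnn, the nucleoporin Nup54, the translesion polymerase Rev1, the replication protein Rpa3, the Integrator-related gene Ints6l, the cytokine Il15, the interferon regulator Irf3 and the transcription factors Alx1 and Tcf21, the second of which acts in the kidney stroma and podocytes. Srsf5 (L13635_s_at) read 278, 523 and 1505 on mature arrays, against 389, 2921 and 3632 on immature arrays. All 7 immature arrays of batch 2 stood at 2324 or more, while the 3 of batch 1 (389, 425 and 1162) lay inside the mature range. The change was -1.81 ± 0.38 (adjusted p = 0.0022), -0.36 with the block and 1.35 inside batch 1. Pnn read 78.4 to 200.9 on mature arrays, against 701 to 1018 on immature arrays from batch 2 and 53.4, 102 and 292 on those from batch 1, which lay below, inside and above the mature range (-1.87 ± 0.40, adjusted p = 0.0025). For Srsf5, Pnn, Nup54, Rev1, Rpa3 and Tcf21 every immature array of batch 2 stood above the 3 of batch 1, whereas the batches overlapped for Alx1, Ints6l, Il15 and Irf3. For all 10 genes at least 1 immature array of batch 1 lay inside the mature range, and for Rpa3, Rev1 and Srsf5 all 3 did. Of the 10, Pnn (-1.23, adjusted p = 0.017) and Nup54 (-0.86, adjusted p = 0.047) passed with the block. Irf3, at -1.87 ± 0.61 (adjusted p = 0.032), was lost when any 1 of 12 arrays was left out (highest adjusted p = 0.06, without immature replicate 12). The 18S reading that marks the 7 arrays was high on the same arrays, and its part in these falls was not tested.

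**Figure D3:**
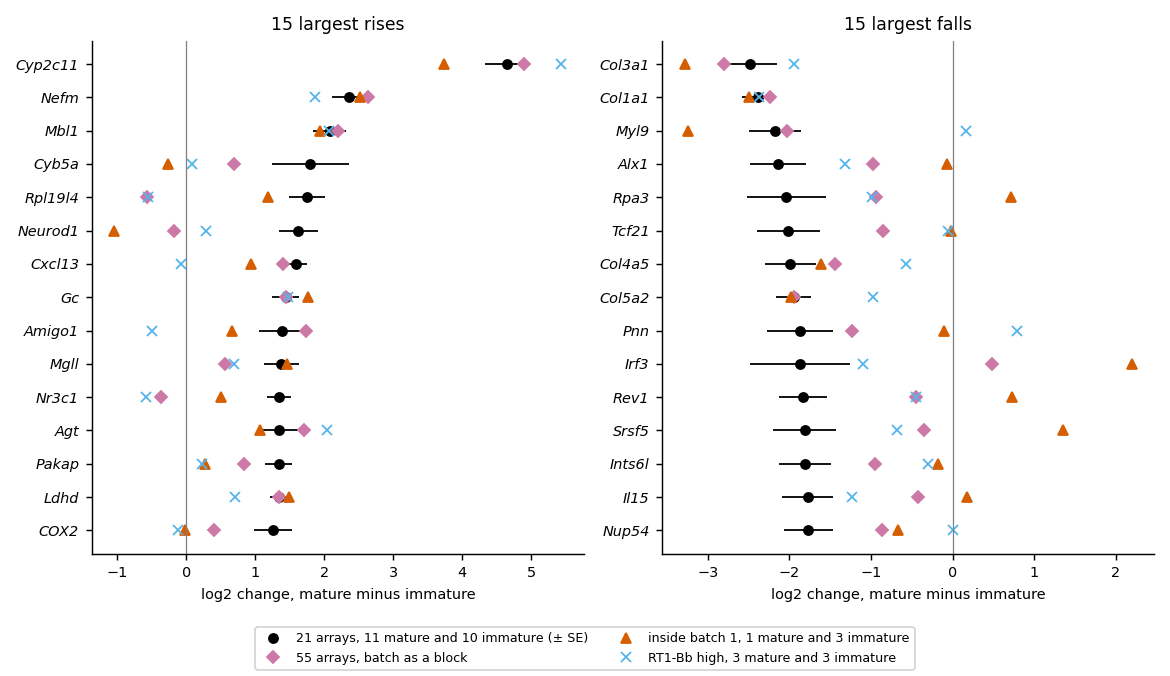
Log2 changes, mature minus immature, of the 15 genes with the largest rises (left) and the 15 with the largest falls (right). Circles with SE bars are the 21 arrays, diamonds the 55-array fit with batch as a block, triangles the difference inside batch 1 and crosses the RT1-Bb-high arrays. The 4 estimates have 1 sign for Cyp2c11, Nefm, Mbl1, Gc, Agt and Col1a1, and lie on both sides of 0 for Neurod1, Irf3, Rev1 and Srsf5.

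On 3 lists of extracellular matrix genes, 17 of 47 genes tested fell (36.2%, against 12.4% of all genes tested) and 0 rose. With the 2 arrays of GAPDH ratio over 3 left out, 20 fell (42.6%, against 16.5%) and 3 rose (6.38%, against 10.7%). The 3 were Col5a1, a fibril chain (0.37), Sparc, a matrix glycoprotein (0.86), and Timp3, a metalloproteinase inhibitor (1.32). These stood at 0.29, 0.35 and 0.77 on the 21 arrays, where none passed, and at -0.35, -0.56 and 0.22 with the block. In the list of fibrillar collagens and their partners 8 of 15 genes tested fell and 0 rose, with a median log2 change of -0.62 (-0.51 with the block, -0.60 inside batch 1 and -0.44 on the RT1-Bb-high arrays, against 0.04, -0.04, -0.09 and -0.01 over all genes tested). With the block 5 of the 15 fell, namely Col1a1, Col1a2, Col3a1, Col5a2 and Eln. Col1a2, the partner chain of type I collagen, read 329, 487 and 878 on mature arrays, against 997, 1294 and 1720 on immature arrays, without overlap (-1.42 ± 0.15, adjusted p = 7.7e-07). On the RT1-Bb-high arrays Col1a2 was at -1.78 (adjusted p = 0.048). Eln, elastin of elastic fibres, fell by 0.95 ± 0.16 (adjusted p = 0.0002).

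In the basement membrane and adhesion list 4 of 11 fell (36.4%, against 12.4% of all genes tested) and 0 rose (median -0.32). With the block 3 of the 4 passed. Agrn, agrin of the glomerular basement membrane, read 461, 597 and 734 on mature arrays, against 800, 1200 and 1524 on immature arrays, again without overlap (-0.96 ± 0.12, adjusted p = 1.1e-05). Fn1, fibronectin, read 210, 622 and 898 on mature arrays, against 820, 2046 and 2231 on immature arrays (-1.72 ± 0.25, adjusted p = 6.1e-05). Only immature replicate 4, at 820, lay inside the mature range. The 3 other probe sets of Fn1 had the same direction, but 0 of them passed. Of 21 genes of matrix turnover 5 fell (23.8%) and 0 rose (median -0.12), and 3 of the 5 fell also with the block. Serpinh1, the chaperone of collagen folding, fell by 1.38 ± 0.30 (adjusted p = 0.0025) without overlap between the stages, and passed with the block at -1.47. Ctsk, the collagen-cleaving cathepsin K, fell by 1.03 ± 0.20 and Mmp9, a gelatinase, by 1.22 ± 0.29, although all 3 immature arrays of batch 1 lay inside the mature range of Mmp9.

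Genes of mitosis also fell. Of 12 tested 7 fell (58.3%, against 12.4% of all genes tested) and 0 rose, and 6 fell with the block (50.0%, against 4.56%). Their median was -0.46, with -0.37 in the block, -0.70 inside batch 1 and -0.47 on the RT1-Bb-high arrays. Top2a (rc_AA899854_at), the topoisomerase that untangles replicated chromosomes, read 116, 143 and 218 on mature arrays, against 257, 481 and 569 on immature arrays. The stages did not overlap, although the 2 lowest immature values (257 and 284) were on arrays of batch 1, and the change of -1.42 ± 0.15 (2.68-fold lower in mature kidney, adjusted p = 7.7e-07) was -1.47 with the block and -1.52 on the RT1-Bb-high arrays. Another probe set of Top2a went the other way. Cdk1 (X60767mRNA_s_at), the kinase that starts mitosis, read 21.6, 89.8 and 155.9 on mature arrays, against 150, 223 and 278 on immature arrays. Only immature replicate 4 lay inside the mature range, and the change was -1.34 ± 0.24 (adjusted p = 0.00048), with -1.79 on the RT1-Bb-high arrays (adjusted p = 0.015). Cdc20 (AF052695_at), which activates the anaphase-promoting complex, read 132, 169 and 207 on mature arrays, against 224, 284 and 330 on immature arrays, with no overlap (-0.75 ± 0.11, adjusted p = 4.2e-05). H2az1, a histone variant, and Tubb5, a beta tubulin, fell by 1.30 and 0.46, and both passed with the block, but H2az1 was at 0.38 inside batch 1.

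Cell cycle genes of this kind share promoter elements, the CCAAT box, which the activator NF-Y binds, and the cell cycle homology region, through which they are silenced in resting cells, so the start regions of the 3 mitotic genes above are shown. Each runs from 250 bases before to 50 after the gene's start, 5′ to 3′ on the gene's strand (RefSeq, build GRCr8), and capitals mark 2 kinds of letters. For the first element they are CCAAT and its reverse complement ATTGG. For the second they are TTTGAA, its reverse complement on the other strand, which is TTCAAA, and the palindrome of the same family, TTCGAA.
Top2a: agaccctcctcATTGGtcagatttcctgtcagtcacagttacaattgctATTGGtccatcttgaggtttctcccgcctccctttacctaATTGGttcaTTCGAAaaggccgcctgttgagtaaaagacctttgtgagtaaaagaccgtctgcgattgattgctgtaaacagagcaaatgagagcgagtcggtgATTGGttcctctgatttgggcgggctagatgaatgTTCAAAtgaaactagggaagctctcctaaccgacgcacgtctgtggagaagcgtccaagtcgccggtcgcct
Cdk1: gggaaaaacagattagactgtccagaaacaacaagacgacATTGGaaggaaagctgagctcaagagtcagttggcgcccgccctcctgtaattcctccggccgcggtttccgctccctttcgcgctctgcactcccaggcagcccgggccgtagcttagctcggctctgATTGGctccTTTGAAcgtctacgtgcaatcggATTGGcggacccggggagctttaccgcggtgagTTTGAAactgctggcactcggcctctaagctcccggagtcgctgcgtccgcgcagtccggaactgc
Cdc20: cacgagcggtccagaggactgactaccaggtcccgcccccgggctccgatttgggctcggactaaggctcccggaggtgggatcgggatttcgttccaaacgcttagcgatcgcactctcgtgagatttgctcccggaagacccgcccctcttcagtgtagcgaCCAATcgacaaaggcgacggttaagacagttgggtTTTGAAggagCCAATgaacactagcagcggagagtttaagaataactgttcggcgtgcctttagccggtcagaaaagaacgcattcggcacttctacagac
The Top2a region lies at chr10:84473044-84473343 on the minus strand, the Cdk1 region at chr20:19265043-19265342 on the plus strand and the Cdc20 region at chr5:137255750-137256049 on the minus strand. They hold 4, 3 and 2 CCAAT boxes and 2, 2 and 1 cell cycle homology regions. Among all 33469 promoters of RefSeq's set, 37.5% held a CCAAT box, 19.7% a cell cycle homology region and 7.95% both. Of the 7 mitosis genes that fell, 6 had an entry, and 6 of these held a CCAAT box and 4 held both. Of the 11 mitosis genes tested that had an entry, whether they fell or not, 10 held a CCAAT box and 6 held both. The matches are descriptions of these letters, not binding sites.

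In the DNA replication list 6 of 17 fell (35.3%, against 12.4% of all genes tested) and 0 rose (median -0.31). With the block 4 fell (23.5%, against 4.56%), of which Prim1 and Rpa2 were among the 6. Prim1, the small primase subunit, fell by 1.23 ± 0.24 (adjusted p = 0.0011) and Rpa2, a single-strand binding protein, by 0.75 ± 0.23 (adjusted p = 0.022). With the block they were at -1.19 and -0.98. Pcna, the sliding clamp of DNA polymerase, read 445, 707 and 899 on mature arrays, against 826, 1436 and 2218 on immature arrays (-1.02 ± 0.20, adjusted p = 0.0011), and stood at -0.18 with the block. Of 20 genes of kidney development and fetal growth 3 fell and 0 rose (median -0.13), and the 15% that fell is near the 12.4% of all genes tested. Ptn, the growth factor pleiotrophin, fell by 1.28 ± 0.27, Plagl1, an imprinted zinc-finger gene, by 0.71 ± 0.15, and Grb10, an imprinted brake on insulin signalling, by 0.54 ± 0.17. With the block Ptn and Plagl1 passed (-0.95 and -0.76) and Grb10 was at 0.00. Inside batch 1 Ptn was at 0.52 and Grb10 at 0.33.

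More proximal tubule transporters rose than fell. Of 28 tested 9 rose and 3 fell (median 0.23, but 0.03 with the block), and with the block 5 rose and 1 fell. The shares are 32.1% and 10.7%, against 9.23% and 12.4% of all genes tested. With the block they are 17.9% and 3.57%, against 2.63% and 4.56%. Slc13a3, the sodium-dicarboxylate cotransporter, read 2027, 3178 and 3506 on mature arrays, against 1192, 1869 and 2156 on immature arrays, and the stages met only at their edges (0.82 ± 0.13, adjusted p = 0.00015, and 0.46 with the block). Slc15a1 and Slc15a2, the low- and high-affinity peptide transporters, went opposite ways, Slc15a1 up by 0.87 ± 0.18 and Slc15a2 down by 0.52 ± 0.11. Slc15a1 passed with the block at 1.11 but was at -0.58 inside batch 1. Slc4a4, the basolateral sodium bicarbonate cotransporter, rose by 0.76 ± 0.15 and was at -0.44 with the block. Slc26a1, a sulfate transporter, rose by 0.65 ± 0.14, with 0.19 in the block. Slc9a3, the apical sodium-proton exchanger, fell by 1.07 ± 0.25, with -0.43 in the block and 0.21 inside batch 1.

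Of 9 organic anion and cation transporters 3 rose (33.3%, against 9.23% of all genes tested) and 0 fell. Their median was 0.34, with 0.12 in the block and 0.61 inside batch 1. Slc22a2 (D83044_at), the organic cation transporter of the basolateral membrane, read 3950, 4911 and 7309 on mature arrays, against 1387, 2422 and 3079 on immature arrays. The stages did not overlap, and the change of 1.09 ± 0.15 (2.12-fold, adjusted p = 2.7e-05) was 0.78 with the block and 1.87 on the RT1-Bb-high arrays. Slc22a6, the organic anion transporter 1, read 2089, 2937 and 3250 on mature arrays, against 1294, 1552 and 2171 on immature arrays (0.74 ± 0.13, adjusted p = 0.00025), and was at 0.99 with the block. The carnitine transporter Slc22a5 rose by 0.36 ± 0.13 (adjusted p = 0.047), a call lost when any 1 of 17 arrays was left out (highest adjusted p = 0.084, without immature replicate 13).

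Brush border enzymes gave 3 rises and 2 falls among 15 tested (median 0.18, and -0.21 with the block). The shares are 20% and 13.3%, against 9.23% and 12.4% of all genes tested. Ggt1, gamma-glutamyltransferase, rose by 0.90 ± 0.23 (adjusted p = 0.0095), by 0.59 without the arrays of high GAPDH ratio, and passed with the block at 0.70. Ace, the angiotensin-converting enzyme, read 210, 325 and 428 on mature arrays, against 113, 146 and 395 on immature arrays (0.93 ± 0.18, adjusted p = 0.00097). Of the immature arrays 2 of the 3 in batch 1 lay inside the mature range, and Ace was at 0.34 with the block and -0.26 inside batch 1. Anpep, aminopeptidase N, rose by 0.30, and Folh1, a folate hydrolase, and Mep1b, a meprin subunit, fell by 0.56 and 0.44. Those 3 calls were each lost when single arrays were left out: the highest adjusted p was 0.06 for Anpep without immature replicate 11, 0.052 for Folh1 without immature replicate 12 and 0.053 for Mep1b without immature replicate 8.

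In the loop of Henle and distal nephron list 1 of 30 rose and 5 fell (median -0.05), or 3.33% and 16.7%, against 9.23% and 12.4% of all genes tested. Calb1 (M31178_g_at), the calcium-binding calbindin of the distal convoluted tubule, read 1863, 2619 and 3713 on mature arrays, against 4686, 5029 and 5756 on immature arrays. The stages did not overlap on these 21 arrays, and the change was -0.96 ± 0.12 (1.95-fold lower in mature kidney, adjusted p = 6.8e-06), -0.65 with the block, -0.49 inside batch 1 and -1.19 on the RT1-Bb-high arrays. Slc12a1, the sodium-potassium-chloride cotransporter that loop diuretics block, fell by 0.89 ± 0.23 (adjusted p = 0.0077) and passed with the block at -0.81. Aqp3, a basolateral water channel of the collecting duct, fell by 0.62 ± 0.17 and was at -0.39 with the block. Klk1 (M19647_i_at), tissue kallikrein of the connecting tubule, rose by 0.84 ± 0.18 (adjusted p = 0.0024), passed with the block at 0.61, and was at 0.04 inside batch 1 and -0.69 on the RT1-Bb-high arrays.

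The renin-angiotensin-kinin list held 5 rises and 1 fall among 16 genes (31.2% and 6.25%, against 9.23% and 12.4% of all genes tested). Its median of 0.39 was 0.00 with the block and -0.31 inside batch 1, where 13 of the 16 were below 0. The 5 rises were Agt, Ace, Klk1, Nos2 and Bdkrb1, of which Agt and Klk1 passed with the block. Agtr1a, the angiotensin II receptor of the vasculature and tubule, fell by 0.68 ± 0.17 (adjusted p = 0.0078), and by 0.49 without the arrays of high GAPDH ratio. Nos2, the inducible nitric oxide synthase, rose by 0.65 ± 0.20 (adjusted p = 0.024) but not without immature replicate 10 (adjusted p = 0.052). Bdkrb1, the inducible kinin receptor, rose by 0.56 ± 0.20 with an adjusted p that rounds to 0.05, and was lost without any 1 of 15 arrays (highest adjusted p = 0.097, without immature replicate 13). Inside batch 1 Nos2 was at -0.69 and Bdkrb1 at -0.91.

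Of 36 cytochrome P450 and eicosanoid genes 11 rose and 4 fell (30.6% and 11.1%, against 9.23% and 12.4% of all genes tested, median 0.35). The median was 0.11 with the block and -0.16 inside batch 1, where 23 of the 36 were below 0. With the block 3 rose and 3 fell (8.33% each, against 2.63% and 4.56%). Cyp2c23, the main arachidonic acid epoxygenase of rat kidney, read 7803, 17227 and 23806 on mature arrays, against 4943, 8809 and 16071 on immature arrays (0.99 ± 0.22, adjusted p = 0.0027). It was at 0.13 with the block and -0.18 inside batch 1, against 4.89 and 3.74 for Cyp2c11 of the same subfamily. Cyp24a1, the hydroxylase that inactivates vitamin D, rose by 0.95 ± 0.21 and was at 0.69 with the block (adjusted p = 0.1). Hpgd, which inactivates prostaglandins, read 21.0, 140 and 187 on mature arrays, against 137, 334 and 472 on immature arrays (-1.46 ± 0.30, adjusted p = 0.0018), and was at -1.65 with the block. Alox15, an arachidonate lipoxygenase, fell by 1.25 ± 0.28 with 1011 on immature replicate 4, against 307 to 542 on the other 9. Ptgds, a prostaglandin D synthase, rose by 0.62 ± 0.16 and was at 1.02 with the block.

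Among 33 genes of glutathione and conjugation 4 rose and 5 fell (median 0.15), with 4 and 3 under the block. The 12.1% and 15.2% are near the shares over all genes tested (9.23% and 12.4%), and with the block the list's 12.1% and 9.09% stand against 2.63% and 4.56%. Members of the glutathione transferase family parted. Gsta1 read 2974, 10136 and 14271 on mature arrays, against 2067, 3876 and 6016 on immature arrays, with the 2 lowest mature values on the arrays of high GAPDH ratio (1.11 ± 0.24, and 1.40 without the arrays of high GAPDH ratio). Gsta3 read 164, 642 and 907 on mature arrays, against 852, 1104 and 1375 on immature arrays (-1.03 ± 0.23, adjusted p = 0.0032). Both passed with the block, at 0.89 and -1.12. Glutathione transferases are close relatives in sequence, so their probe sets may share signal. Gstp1 rose by 0.61 ± 0.15 and was at 0.39 with the block. Fmo1, a flavin monooxygenase, rose by 0.56 ± 0.15, and Ugt8, a glycosyltransferase, fell by 0.77 ± 0.15, and both passed with the block.

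Of 19 genes known to respond to sex hormones or growth hormone in rats 4 rose (21.1%, against 9.23% of all genes tested) and 0 fell. Their median was 0.33, but -0.05 with the block. The 4 were Cyp2c11, Slc22a2, Slc22a6 and Igfals, the acid-labile subunit that carries circulating IGF. Igfals read 494, 782 and 901 on mature arrays, against 323, 348 and 602 on immature arrays. The 3 immature arrays of batch 1 lay inside the mature range, and its change of 0.88 ± 0.14 (adjusted p = 0.00019) was 0.37 with the block (adjusted p = 0.053) and -0.24 inside batch 1. In the IGF list 3 of 14 rose (21.4%, against 9.23% of all genes tested) and 0 fell. The 3 were Igfals, the binding protein Igfbp5 (1.02 ± 0.19) and the receptor Igf1r (0.55 ± 0.13). With the block 0 of the 14 were called. Cyp2c12, the female-specific counterpart of Cyp2c11, was too dim to be tested, and so were Cyp2c7, Cyp3a2 and Hsd17b2 of the same list.

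Metabolic lists had calls both ways, at shares near those of all genes tested (9.23% higher and 12.4% lower). Among 34 genes of gluconeogenesis and amino acid metabolism 4 rose and 4 fell (11.8% each, median 0.05). Glul, glutamine synthetase, rose by 0.83 ± 0.15 (adjusted p = 0.00048) and Dao, D-amino acid oxidase, by 0.68 ± 0.14. Both passed with the block, at 0.57 and 0.44. Gpt, alanine aminotransferase, fell by 1.02 ± 0.15 (adjusted p = 8.3e-05) and was at -0.60 with the block (adjusted p = 0.099). Among 37 genes of fatty acid oxidation and peroxisomes 4 rose and 5 fell (10.8% and 13.5%, median -0.21). With the block 1 rose and 4 fell (2.7% and 10.8%, against 2.63% and 4.56%). Acox2, a peroxisomal oxidase of bile acid precursors, read 196, 434 and 602 on mature arrays, against 352, 1159 and 1341 on immature arrays, where only replicate 4 lay inside the mature range (-1.23 ± 0.22, -0.92 with the block). Hadha, of the mitochondrial trifunctional protein, rose by 0.65 ± 0.13, and Fabp5, a fatty acid carrier, fell by 0.71 ± 0.14, and both passed with the block.

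Oxidative phosphorylation gave 2 rises and 6 falls among 37 genes (5.41% and 16.2%, against 9.23% and 12.4% of all genes tested; median 0.00), and 0 were called with the block. Cox6c and Uqcr11, small subunits of complexes IV and III, did not overlap between the stages and fell by 0.73 and 0.50, yet stood at 0.10 and -0.15 with the block. Cox6a2, a heart-type subunit, rose by 0.77 and was at -0.45 inside batch 1. Of 37 cytosolic ribosomal protein genes 1 rose and 7 fell (2.7% and 18.9%, against 9.23% and 12.4% of all genes tested, median -0.25). With the block 3 fell (8.11%, against 4.56%). Rpl31 read 2224, 5097 and 5741 on mature arrays, against 5774, 6566 and 7868 on immature arrays, without overlap. Rpl22 read 2520, 4650 and 5844 on mature arrays, against 5988, 7017 and 7676 on immature arrays, also without overlap. Both encode large-subunit proteins, and Rpl31 passed with the block (-0.65) while Rpl22 did not (-0.29, adjusted p = 0.25).

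**Figure D4:**
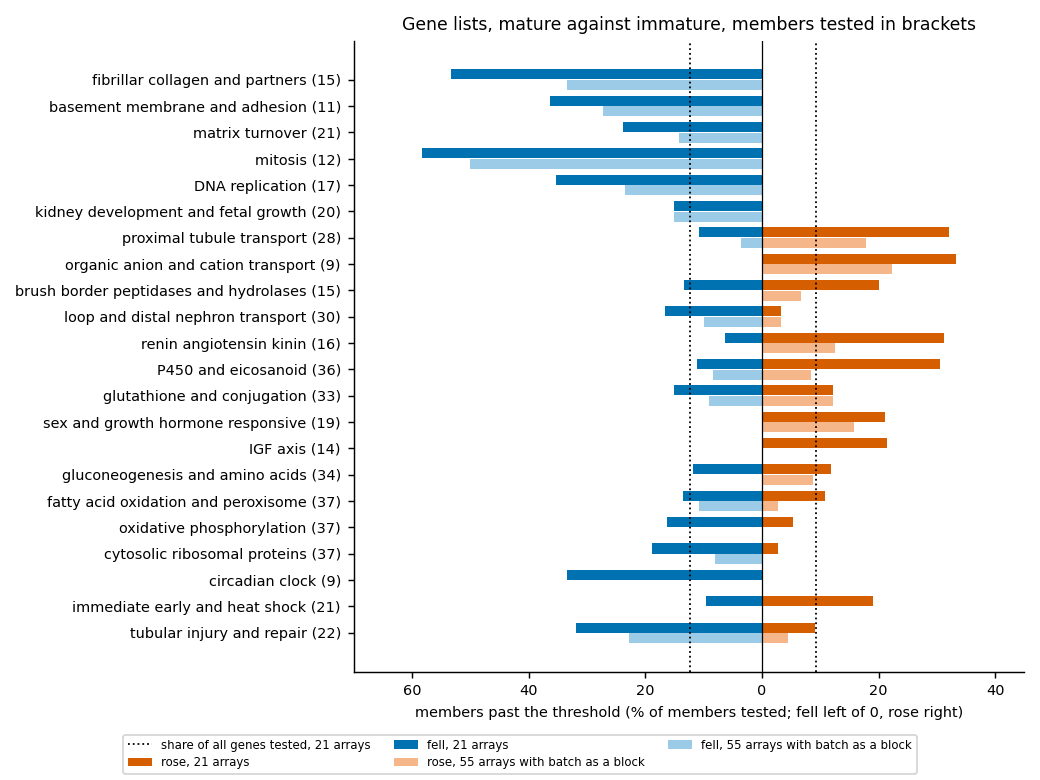
Percent of the tested members of each gene list that rose (right) or fell (left) in mature against immature kidney, in dark bars for the 21 arrays and in pale bars for the 55-array fit with batch as a block. Dotted lines mark the shares over all genes tested on the 21 arrays (9.23% higher, 12.4% lower). Collagens and mitosis reach far to the left (8 of 15 and 7 of 12 fell, and 5 and 6 with the block), while the clock, IGF and oxidative phosphorylation lists have no pale bar.

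Clock and stress genes vary with the time of day and the handling of tissue. Of 9 clock genes 3 fell (33.3%, against 12.4% of all genes tested), and 0 were called with the block. The 3 were Per2 (-1.52 ± 0.35), Nr1d2 (-1.19 ± 0.28) and Bmal1 (-0.42 ± 0.15). Inside batch 1 Per2 and Nr1d2 stood at 1.67 and 0.86, and Bmal1 was lost without any 1 of 14 arrays (highest adjusted p = 0.089, without immature replicate 7). Among 21 immediate early and heat shock genes 4 rose and 2 fell (19.0% and 9.52%, against 9.23% and 12.4% of all genes tested). The falls were Dnaja1 (-0.72 ± 0.17) and the endoplasmic reticulum chaperone Hspa5 (-0.46 ± 0.12). With the block 0 of the 21 were called. In the injury and repair list 2 of 22 rose and 7 fell (9.09% and 31.8%, against 9.23% and 12.4% of all genes tested, median -0.22). With the block 1 rose and 5 fell (4.55% and 22.7%, against 2.63% and 4.56%). Lgals1, galectin-1, read 202, 268 and 409 on mature arrays, against 521, 591 and 1354 on immature arrays, without overlap (-1.15 ± 0.16, adjusted p = 3.9e-05), and was at -0.68 with the block (adjusted p = 0.11). Lgals3, galectin-3, fell by 0.48 ± 0.09 and Anxa1, annexin A1, by 1.23 ± 0.21, and both passed with the block, though Anxa1 was at 0.27 inside batch 1.

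Markers of cell types that a kidney sample holds were counted in the same way, beside 9.23% higher and 12.4% lower over all genes tested. Of 5 podocyte genes 1 fell, Vegfa, the vascular growth factor made by podocytes and tubules, which read 109, 219 and 318 on mature arrays, against 173, 938 and 1053 on immature arrays (-1.49 ± 0.30). Of the 3 immature arrays of batch 1, 2 lay inside the mature range, and Vegfa was at -0.58 with the block and 0.19 inside batch 1. Of 5 endothelial genes 1 rose, the receptor Flt1 (0.50 ± 0.15), with summed intensities of 1230 to 1950 on mature arrays, against 982 to 1559 on immature arrays. Among 12 smooth muscle and mesangial genes Pdgfrb (0.59) and Tpm1 (0.53) rose, and Cald1 (-0.93) fell beside Myl9. The Cald1 call was lost without immature replicate 7, 11 or 12 (highest adjusted p = 0.057). None of Flt1, Pdgfrb, Tpm1 and Cald1 was called with the block.

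Of 14 leukocyte genes 3 rose and 1 fell (21.4% and 7.14%, against 9.23% and 12.4% of all genes tested, median 0.29). Their summed intensities were 15445 to 28530 on mature arrays, against 11511 to 17577 on immature arrays. Ccl2, the monocyte chemokine, fell by 0.99 ± 0.17 (adjusted p = 0.00024) and passed with the block at -0.88. The rises were the class II genes RT1-Ba (0.48) and RT1-Db1 (0.41) and the B-cell gene Cd37 (0.46). Other probe sets of RT1-Ba were at 0.32 and 0.06 and that of RT1-Db1 at -0.06, and none of these passed. The call of RT1-Db1 was lost without any 1 of 15 arrays (highest adjusted p = 0.098, without immature replicate 8) and that of Cd37 without any 1 of 10 (highest adjusted p = 0.077, without immature replicate 11). RT1-Ba and RT1-Db1 belong to the same class II region as the gene that chose the arrays. T-cell markers Cd3d, Cd3g and Cd8a were too dim to be tested.

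The erythroid list had 4 of 8 genes lower (50.0%, against 12.4% of all genes tested) and 0 higher (median -0.43). Its summed intensity was 8597 to 14965 on mature arrays, against 13104 to 22285 on immature arrays. The list's median was -0.29 with the block, -0.65 inside batch 1 and 0.05 on the RT1-Bb-high arrays, where 4 genes were above and 4 below 0. Hbb, a beta globin, read 3466, 4436 and 7656 on mature arrays, against 6163, 7697 and 11944 on immature arrays (-0.79 ± 0.15, adjusted p = 0.00089), and Hbb-b1 fell by 0.64 ± 0.15. Both passed with the block, at -0.96 and -0.93. Tfrc, the transferrin receptor, fell by 1.39 ± 0.35 and passed as well, while Car2, carbonic anhydrase 2, fell by 0.53 and did not. The part of blood in other changes was not tested.

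The lists for fat, adrenal, liver and muscle held 2 calls, and single immature arrays stood apart in 2 of them. Of 4 fat genes Lep rose (0.39), a call lost without any 1 of 16 arrays (highest adjusted p = 0.098, without immature replicate 9). Of 4 adrenal genes Pnmt rose (0.44), lost without any 1 of 5 (highest adjusted p = 0.065, without immature replicate 11). Neither passed with the block, and the defining genes Plin1, Cfd, Star and Cyp17a1 were too dim to be tested. The fat gene Lpl, lipoprotein lipase, was at 0.23 (adjusted p = 0.63) and was called with the block at -1.04. On immature replicate 4 the brown fat gene Ucp1 read 546.5, against 15.3 to 145.6 on the other 9 immature arrays, and Cidea, a lipid droplet gene, 444.6, against 63.5 to 169.5. The fat sum was 3105 to 5750 on mature arrays, against 2852 to 5066 on immature arrays. Of 8 liver and 6 muscle genes 0 were called. The liver sum was 977 to 1690 on mature arrays, against 817 to 2476 on immature arrays. Immature replicate 7 was the highest of the immature arrays for Serpina1, a plasma protease inhibitor (615.9, against 132.2 to 321.8 on the other 9), and for Ahsg, the plasma glycoprotein fetuin-A (346.7, against 32.2 to 125.9). The part of such tissue in other results was not tested. Alb, albumin, had a median of 72.8 on mature arrays, against 64.5 on immature arrays.

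Whether the stage difference itself depended on the RT1-Bb class was tested as an interaction over all 27 mature and immature arrays. It was called for 14 genes (0.365%), 9 with a higher change on the low arrays (0.235%) and 5 with a lower one (0.13%), and for 28 probe sets (0.427%; 0.305% higher and 0.122% lower). Glul had the largest positive difference, 2.97 ± 0.33 (adjusted p = 5.8e-06). Its log2 change was 0.83 on the low arrays and -2.14 on the high arrays (adjusted p = 0.029), where it read 1435, 2774 and 2797 on the 3 mature arrays, against 8371, 9759 and 11946 on the 3 immature ones. The 3 other probe sets of Glul went the same way on the low arrays. Of the 5 largest positive differences Glul was the one that passed with batch as a block in these 27 arrays. In that fit batch 1 alone sets the difference, and mature replicate 5 is its only RT1-Bb-low mature array. Scn4a, a muscle sodium channel, Gsk3b, a glycogen synthase kinase, Nr3c1 and Adprs, an ADP-ribose hydrolase, followed at 2.54, 2.10, 1.94 and 1.76. Adprs was itself called on the low arrays (0.46, adjusted p = 0.047), a call lost without any 1 of 13 arrays (highest adjusted p = 0.093, without immature replicate 8). Cxcl13 also differed (1.66, adjusted p = 0.03) and was at 1.59 on the low and -0.07 on the high arrays.

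Stk25, a kinase of the Golgi, had the largest negative difference at -3.16 ± 0.49 (adjusted p = 0.0013). Its change was -0.35 on the low arrays (adjusted p = 0.31) and 2.81 on the high arrays, where it read 179, 288 and 333 on the 3 mature arrays, against 20.2, 22.4 and 28.2 on the 3 immature ones. Smarca4, a chromatin remodeller, Celf2, an RNA-binding protein, Aif1l, an actin-binding protein, and Slc15a2 followed at -2.31, -1.76, -1.64 and -1.36. Smarca4 and Aif1l passed with the block, which again rests on mature replicate 5 for the low mature arrays. On the low arrays alone Aif1l was called at -0.36 (adjusted p = 0.039), lost without any 1 of 13 arrays (highest adjusted p = 0.072, without immature replicate 11). The RT1-Bb-high comparison had 3 arrays a stage and called 30 genes (0.782%), 17 higher in mature kidney (0.443%) and 13 lower (0.339%).

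**Figure D5:**
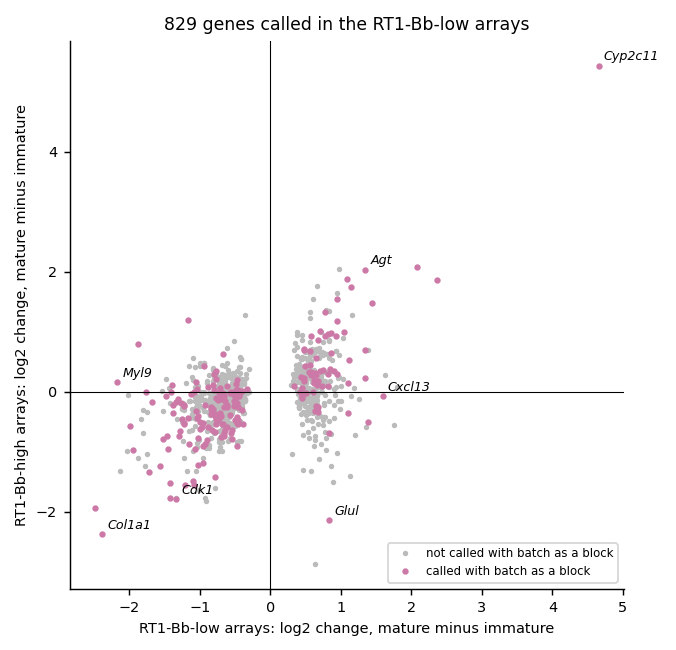
Each point is 1 of the 829 genes called on the RT1-Bb-low arrays, by its log2 change there (horizontal) and on the RT1-Bb-high arrays (vertical), mature minus immature, with coloured points for genes also called with batch as a block. Cyp2c11, Agt, Col1a1 and Cdk1 have the same direction on both axes, Glul has opposite directions, and Myl9 and Cxcl13 lie near 0 on the RT1-Bb-high axis.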

How the data were processed

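Each of the 55 arrays is a 1-colour Affymetrix rat array, and the authors deposited an intensity per probe set on a linear scale. Per the labels' protocols total RNA was hybridised; the method of summarising and scaling probes is not given in the sources used here. These tables hold 8799 probe sets, none below 0 and 49 values at 0, and no 2 arrays were identical (correlations of 0.790 to 0.988 among the 21). No replicate number pairs arrays.

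From these intensities log2(intensity + 15.82) was computed, the offset being 0.1 of the median. After 59 control probe sets were left out, 6555 probe sets above the 25th percentile of mean intensity were tested with limma 3.58.1 (R 4.3.3), with Benjamini-Hochberg adjustment over all 6555 and a threshold of 0.05. A gene is represented by its brightest probe set (3835 genes). GEO's platform table gave 7018 probe sets 1 symbol, 308 several and 1473 none, and 6994 symbols were updated through gene identifiers (RefSeq, GRCr8). Named genes are the 15 largest changes each way, the 6 list members with the smallest p and the 5 largest interactions each way, plus members described for their place in a list; Col5a1, Sparc, Timp3, Lpl, Ucp1, Cidea, Serpina1 and Ahsg were added after their values were seen. The arrays, the 22 pathway lists and the 10 cell type lists were chosen with earlier results of these data known. On simulated data with 6555 probe sets, 20.9% of log2 changes of 0.5, 79.1% of 1 and 98.5% of 2 were recovered. Of 145 calls 13 were false. The simulated noise was independent between arrays and held no batch, so these figures do not cover batch, which nearly coincided with stage here. The number of arrays limits the precision.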

Additional observations from a re-analysis of the deposited data

Results flagged for a closer look

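Among the 10 immature arrays, 1 array stood far from the other 9 for 17 of the named genes, and chance alone flags about 1 group in 20. Each of the 17 values was on replicate 4, 5 or 6, the 3 immature arrays of batch 1. Replicate 4 was lowest for Alx1 (22.5), Tcf21 (34.1), Gsta1 (2066.6), Gstp1 (2658.7), Acox2 (351.7) and Smarca4 (30.7), and highest for Slc4a4 (4958.3), Alox15 (1011.1), Dao (9675.5), Gsk3b (236.7) and Cidea (444.6). Replicate 5 was lowest for Rpl19l4 (214.9), Ints6l (134.4), Ugt8 (298.5) and Glul (4901.6), and highest for Lgals1 (1354.4). Replicate 6 was highest for Cox6c (1229.5). The 11 mature arrays were too many for this check.

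The mature minus immature difference was not the same on RT1-Bb-low as on RT1-Bb-high arrays by the interaction test for 11 named genes. The difference of log2 changes, low minus high, was positive for Glul (2.97), Scn4a (2.54), Gsk3b (2.10), Nr3c1 (1.94), Adprs (1.76) and Cxcl13 (1.66). It was negative for Stk25 (-3.16), Smarca4 (-2.31), Celf2 (-1.76), Aif1l (-1.64) and Slc15a2 (-1.36). All 6 high arrays lie in batch 1 and 17 of the 21 low arrays do not. With batch as a block Glul, Smarca4 and Aif1l passed. That fit rests on mature replicate 5, the only RT1-Bb-low mature array of batch 1.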

How the results depend on the processing

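The direction of all 131 named genes was the same as reported under median scaling, quantile normalization, both other offsets, the other filters that kept the gene, the trended prior, the GAPDH covariate, and with any single array left out, and 120 of them were called in the reported fit. Single arrays left out gave 1027 to 1759 called probe sets, 407 to 845 of them higher and 619 to 914 lower, and cost 16 named genes their call at least once. Of 1397 called probe sets (603 higher, 794 lower), array weights gave 3829 (2137 and 1692), all 55 arrays 2033 (931 higher), leaving out the 3 mature arrays with an actin ratio over 2 gave 2464 (1202 and 1262), and the cause was not tested. With batch as a block there were 482 (170 and 312) over 55 arrays, 694 (263 and 431) over 55 without GAPDH ratios over 3, and 58 (13 and 45) over the 21; batch as a random block gave 33 (17 and 16), leaving out the 7 immature arrays of batch 2 gave 56 (39 and 17), and batch 1 alone, 1 mature against 3 immature arrays, gave 1 (0 and 1), fewer arrays being compared in the last 2. The interaction's 28 probe sets became 84 without GAPDH ratios over 3, 11 with batch as a block and 18 after quantile normalization. The random block, the actin limit, the removal of the batch 2 arrays and the 55-array block without GAPDH ratios over 3 were added after seeing the data. No paired analysis was possible because replicate numbers follow accession order only.

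Log2 changes of opposite sign to the reported ones follow. Those inside batch 1 rest on mature replicate 5, whose actin ratio was over 2. Inside batch 1, and with the 21-array block, which gives the same value: Cyb5a -0.26, Neurod1 -1.04, COX2 -0.022, Rpa3 0.72, Irf3 2.20, Rev1 0.72, Srsf5 1.35, Il15 0.18, H2az1 0.38, Ptn 0.52, Grb10 0.33, Slc15a1 -0.58, Slc26a1 -0.10, Slc9a3 0.21, Ace -0.26, Nos2 -0.69, Cyp2c23 -0.18, Igfals -0.24, Dao -0.00077, Cox6a2 -0.45, Per2 1.67, Nr1d2 0.86, Dnaja1 0.10, Anxa1 0.27, Vegfa 0.19, Flt1 -0.047, Pdgfrb -0.55, RT1-Ba -0.17, Adprs -0.23, Stk25 0.72, Mep1b 0.23, Bdkrb1 -0.91, Car2 0.21, Lep -0.37, Pnmt -0.071, Col5a1 -0.60, Sparc -0.17, Timp3 -0.53, Lpl -0.55, Ucp1 -1.86, Cidea -0.84, Serpina1 -0.20 and Ahsg 0.27. With the 55-array block: Rpl19l4 -0.57, Neurod1 -0.18, Nr3c1 -0.36, Irf3 0.48, Slc4a4 -0.44, Nos2 -0.082, Cox6c 0.10, Bmal1 0.38, Col5a1 -0.35, Sparc -0.56, Lpl -1.04, Ucp1 -0.55 and Serpina1 -0.020. With it and without GAPDH ratios over 3: Rpl19l4 -0.46, Neurod1 -0.18, Nr3c1 -0.32, Irf3 0.063, Grb10 0.072, Slc4a4 -0.40, Cox6c 0.077, Gsk3b -0.17, Bmal1 0.41, Col5a1 -0.28, Sparc -0.12, Lpl -0.73, Ucp1 -0.48 and Serpina1 -0.024. Without the immature arrays of batch 2: Pnn 0.013, Folh1 0.043, RT1-Ba -0.084, Stk25 0.35, Celf2 0.29, Bdkrb1 -0.067, Lep -0.089, Pnmt -0.059, Ucp1 -1.03 and Cidea -0.73. Over all 27 mature and immature arrays: Stk25 0.36, Smarca4 0.054, Celf2 0.31, Ucp1 -0.32 and Cidea -0.059. Array weights gave Celf2 0.013, the random block Stk25 0.049, Col5a1 -0.028, Lpl -0.028, Ucp1 -0.54 and Cidea -0.24, the actin limit Celf2 0.092 and the mean of a gene's probe sets Tpm1 -0.28, Sparc -0.40 and Ahsg 0.11. The cause was not tested.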
